A study of Homo sapiens with 8 samples.

Results

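EDN1 and 9 genes that act with it in vessel growth were followed through the RNA-seq profiles of HT29 and SW480 cells, 2 colorectal cancer lines that both express truncated forms of APC. The 10 genes (EDN1, ECE1, VEGFA, VEGFB, VEGFC, ANG, ADM, PDGFA, HIF1A and EPAS1) were taken by symbol from the 25192 genes of the quantification files. EDN1 was picked because its level fell in both lines after the knockdown, so that fall is given below as a description, without a test. The siCon groups received control siRNA, directed at firefly luciferase, and the siPrdx2 groups received siRNA against PRDX2, which encodes the peroxide-reducing enzyme peroxiredoxin II (PrxII). RNA was taken at 36 h, with HT29 cells kept in McCoy's 5A medium and SW480 cells in RPMI1840, each with 10% fetal bovine serum. Each line and siRNA has 2 libraries, 8 in all. The labels do not say whether the duplicates came from separate cultures, so the p values measure the spread between these libraries, which may be technical. Each line comes from 1 tumour and was kept in 1 medium, so a difference between HT29 and SW480 cells cannot be told apart from one of medium or of handling.

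Endothelin-1 is made as a large precursor from EDN1, trimmed by furin-type proteases and then cut to the active peptide by the endothelin-converting enzyme ECE1. It constricts vessels and promotes growth through the receptors EDNRA and EDNRB, and EDN1 is known as a gene that β-catenin can activate in colon cancer cells. The other secreted factors act mainly on endothelial and mural cells: VEGFA drives vessel sprouting, VEGFB and VEGFC are its relatives, angiogenin (ANG) is a secreted ribonuclease, adrenomedullin (ADM) dilates vessels, and PDGFA recruits mesenchymal cells. HIF1A and EPAS1 encode the α-subunits HIF-1α and HIF-2α, the oxygen-regulated transcription factors that induce VEGFA, EDN1 and ADM in hypoxia and whose abundance is set largely by protein degradation.

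The promoters of EDN1, the gene that fell in both lines, and of ADM and PDGFA, the secreted factors that stood higher in SW480 cells, are printed for the letters that hypoxia and β-catenin factors bind. Each line holds the 250 bases before the start of the canonical transcript, read 5′ to 3′ on the gene's strand from the GRCh37 genome with GENCODE starts: EDN1 at chr6:12290344-12290593 (+), ADM at chr11:10326370-10326619 (+) and PDGFA at chr7:559484-559733 (−). Capitals mark matches to the core of the hypoxia response element (ACGTG or GCGTG on either strand) and to a TCF/LEF site (CTTTGAA or CTTTGAT on either strand).
EDN1: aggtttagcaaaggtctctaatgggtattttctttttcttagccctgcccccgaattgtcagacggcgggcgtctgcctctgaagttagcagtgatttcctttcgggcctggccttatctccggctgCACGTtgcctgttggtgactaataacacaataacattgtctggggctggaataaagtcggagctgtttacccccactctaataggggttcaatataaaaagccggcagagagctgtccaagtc
ADM: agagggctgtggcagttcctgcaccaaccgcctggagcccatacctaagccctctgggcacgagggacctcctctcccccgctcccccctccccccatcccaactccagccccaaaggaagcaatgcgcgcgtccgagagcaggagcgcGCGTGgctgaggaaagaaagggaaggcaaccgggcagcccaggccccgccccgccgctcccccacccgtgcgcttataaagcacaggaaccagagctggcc
PDGFA: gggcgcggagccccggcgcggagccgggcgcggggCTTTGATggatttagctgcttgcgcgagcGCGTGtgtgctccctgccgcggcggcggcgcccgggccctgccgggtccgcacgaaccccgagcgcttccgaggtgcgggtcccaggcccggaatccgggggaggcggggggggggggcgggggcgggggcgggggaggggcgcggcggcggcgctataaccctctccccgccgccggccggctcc
EDN1 carried its hypoxia core 123 to 119 bases before the start, ADM 101 to 97 bases before it and PDGFA 186 to 182 bases before it. EDN1 and ADM also held the TATA letters TATAAA, starting 31 and 27 bases before the start, a word found in 2 of the 9 members searched (all but VEGFA) and in 9.26% of 19867 promoters of the same length. The hypoxia core was in 7 of the 9 and in 51.4% of all promoters. The TCF/LEF letters occurred in PDGFA alone among the 9 (4.62% of all promoters), and the AP-1 letters TGANTCA in none of them (4.7%). CCAAT on either strand was in 3 of the 9, which were ANG, HIF1A and EPAS1, and in 34.3% of all promoters. These matches describe the letters of 1 window per gene.

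The libraries held between 8857442 and 10164137 expected counts, and 3 counts correspond to 0.295 to 0.339 counts per 1000000 (CPM). PRDX2 fell in HT29 cells from 153 and 159 CPM to 85.3 and 86.0 CPM, and in SW480 cells from 202 and 238 CPM to 67.2 and 68.3 CPM. Its log2 fold change was -0.87 (SE 0.049, edgeR adjusted p = 1.15e-09) in HT29 cells and -1.70 (SE 0.12, adjusted p = 0.000618) in SW480 cells. Of 8 epithelial markers, 8 reached 1 TPM (transcripts per 1000000) in every HT29 library and 7 in every SW480 library, KRT20 being the exception. Among them KRT18, KRT19 and KRT8 fell and CDX2 and KRT20 rose in HT29 cells after knockdown, and KRT18 fell in SW480 cells (edgeR adjusted p under 0.05 for each). In SW480 cells KRT18 missed this with limma (adjusted p = 0.115 and 0.110). With all 8 libraries in 1 edgeR fit KRT19, KRT8 and CDX2 missed it in HT29 cells (adjusted p = 0.202, 0.542 and 0.112), while KRT18 and KRT20 kept it. The summed epithelial level was 16247 to 17588 TPM in HT29 cells and 9875 to 10927 TPM in SW480 cells. The 9 endothelial markers summed to 67.1 to 80.7 TPM in HT29 cells, nearly all of it ESAM, which fell after knockdown (log2 fold change -0.22, adjusted p = 0.0284, and 0.184 with DESeq2), with CDH5, TIE1, ERG and EMCN at 0. They summed to 8.73 to 11.8 TPM in SW480 cells, with PECAM1, ERG and EMCN at 0. The 7 fibroblast and mural markers summed to at most 7.18 TPM in HT29 and 33.0 TPM in SW480 cells, with DCN at 0 in every group. Of the 6 leukocyte markers PTPRC was at 0 in every group, while LYZ, which epithelial cells can also express, stood at 4429 to 4652 TPM in HT29 cells. The part of these shifts in the results below was not tested. The SW480 control duplicates differed from each other along transcript GC content (Spearman's rho across genes -0.683, against -0.163 for the HT29 controls, with genes not being independent replicates), so SW480 values of members are also given after a GC correction where it moved them by over 1.5 times.

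EDN1 was lower after PrxII depletion in both lines, whereas the enzyme that completes its maturation showed no change past the threshold in either. In HT29 cells EDN1 stood at 45.4 and 39.3 CPM with siCon and at 32.7 and 30.0 CPM with siPrdx2. In SW480 cells it stood at 7.82 and 9.09 CPM with siCon and at 3.58 and 4.50 CPM with siPrdx2. All siPrdx2 libraries were thus below all siCon libraries of their line, with EDN1 1.35-fold lower in HT29 (-0.43 on the log2 scale) and 2.09-fold lower in SW480 cells (-1.07). The SW480 values rest on few reads, 70 and 88 expected counts in the controls against 36 and 46 after knockdown. Leaving out each library in turn moved the log2 fold change between -0.53 and -0.33 in HT29 cells and between -1.24 and -0.91 in SW480 cells. With the GC correction the values were -0.46 and -0.97. EDN1 was chosen for this fall, so neither the falls nor their difference of -0.63 between lines is tested, and the separation of its libraries belongs to that choice. The share of all genes whose groups do not overlap was not counted. A lack of overlap is thus a description here and below.

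ECE1 stood at 248 and 246 CPM in the HT29 controls and at 228 and 240 CPM after knockdown, where the libraries did not overlap but the log2 fold change of -0.08 (SE 0.038, adjusted p = 0.177) did not pass the threshold of an adjusted p under 0.05. In SW480 cells it stood at 214 and 243 CPM with siCon and at 286 and 301 CPM with siPrdx2, again without overlap. That log2 fold change was 0.36 (95% interval 0.12 to 0.60) and missed the threshold with an adjusted p of 0.0985. The difference between the lines, 0.44 (SE 0.11), had an adjusted p of 0.0771. After the GC correction the SW480 value was 0.19, and leaving out the first or the second SW480 control library brought ECE1 past the threshold at 0.27 and 0.45. Per TPM, the ratio of ECE1 to EDN1 transcripts was 2.21 and 2.53 in the HT29 controls and 2.82 and 3.24 after knockdown. In SW480 cells the ratio was 11.0 and 10.8 in the controls and 32.3 and 27.0 after knockdown. Because EDN1 was chosen for its fall, the rise of this ratio follows at least in part from that choice and was not tested.

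**Figure D1:**
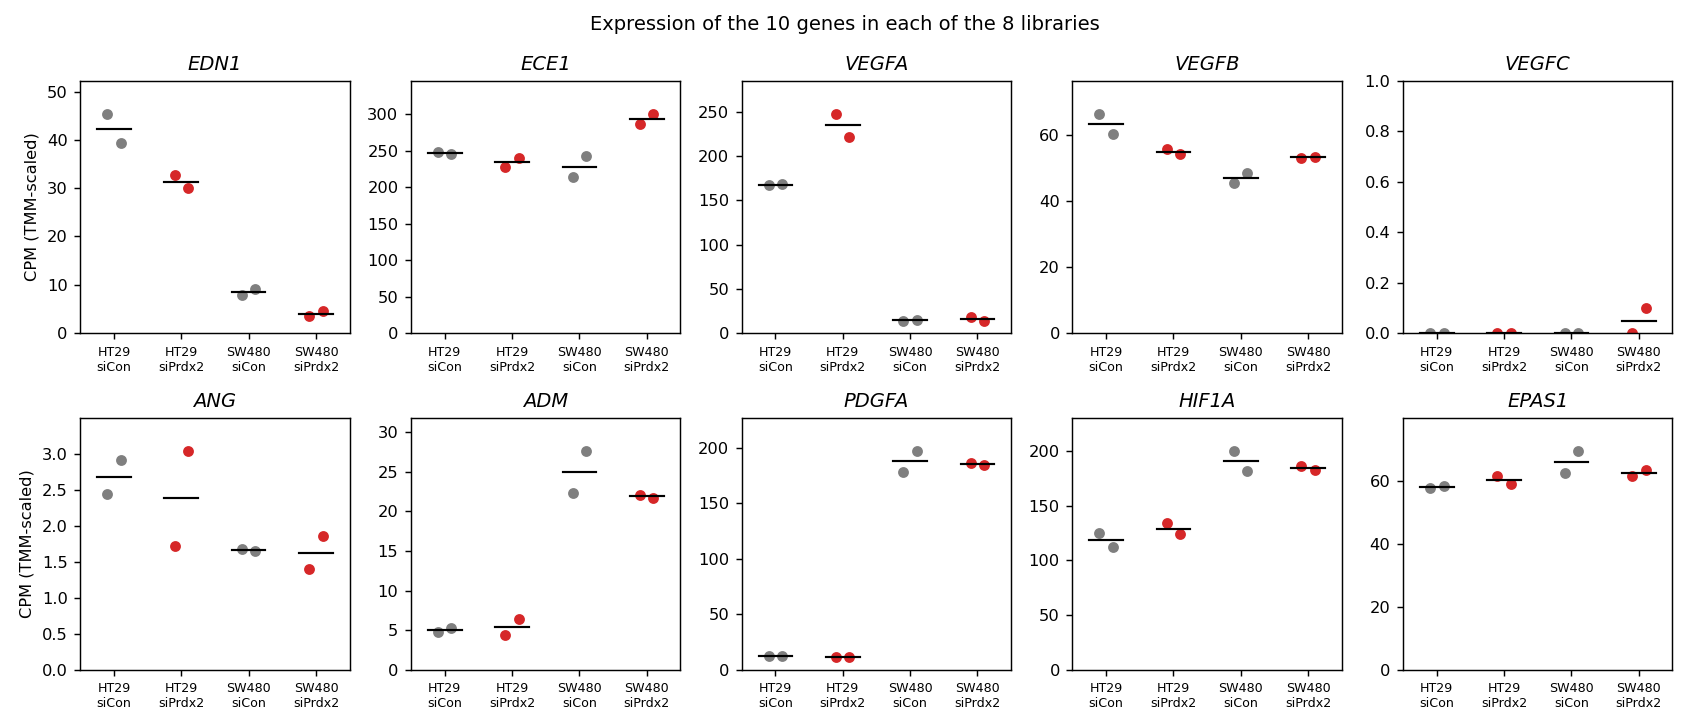
Each panel plots 1 gene, with the 4 groups on the x axis and TMM-scaled CPM on the y axis, starting at 0. Points are single libraries, grey for siCon and red for siPrdx2, and bars are group means of 2 libraries. EDN1 falls in both lines, from a mean of 42.3 to 31.4 CPM in HT29 and from 8.45 to 4.04 CPM in SW480 cells, VEGFA rises in HT29 cells from a mean of 168 to 235 CPM, and PDGFA and ADM are higher in SW480 cells.

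The VEGF ligands moved apart in HT29 cells, where VEGFA rose and VEGFB fell. VEGFA, the main inducer of sprouting, stood at 167 and 168 CPM in the HT29 controls and at 248 and 222 CPM with siPrdx2. The knockdown libraries lay well above the controls, at 1.40-fold (log2 fold change 0.48, SE 0.048, 95% interval 0.38 to 0.59, edgeR adjusted p = 1.29e-06), and VEGFA passed the threshold in every alternative and with every library left out. VEGFB, which supports fatty acid handling and vessel survival, stood at 66.3 and 60.3 CPM with siCon and at 55.5 and 54.0 CPM with siPrdx2. Its log2 fold change of -0.21 (SE 0.064, adjusted p = 0.0295) lay close to the threshold. It passed with edgeR under RLE normalisation and without the count filter, but missed it with DESeq2 (adjusted p = 0.213), with limma (0.133 and 0.132), after the GC correction (0.0587) and with all 8 libraries fitted together (0.338). It also missed it without control library 1, knockdown library 1 or knockdown library 2 (log2 fold changes -0.14, -0.23 and -0.19).

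In SW480 cells neither VEGF ligand passed the threshold. VEGFA stood at 13.3 and 15.1 CPM with siCon and at 17.8 and 13.5 CPM with siPrdx2, which overlap (log2 fold change 0.14, 95% interval -0.29 to 0.57, adjusted p = 0.68, and 0.039 after the GC correction). VEGFB stood at 45.5 and 48.3 CPM with siCon and at 52.8 and 53.4 CPM with siPrdx2. These groups did not overlap, but the log2 fold change of 0.18 had an adjusted p of 0.374 and became -0.071 after the GC correction. The difference between lines was -0.35 for VEGFA (adjusted p = 0.308) and 0.39 for VEGFB (adjusted p = 0.144), so the test does not separate the lines for either gene. VEGFB passed in that test without SW480 control library 1 (0.34) or 2 (0.44). VEGFC, the lymphatic VEGF, had no count in 7 libraries and 1 in the second SW480 siPrdx2 library. It failed the count filter in every fit, and a count of 0 allows at most 3 counts, or 0.295 to 0.339 CPM.

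The remaining secreted factors showed no change past the threshold after knockdown in either line. Adrenomedullin stood in HT29 cells at 4.77 and 5.28 CPM with siCon and at 4.44 and 6.41 CPM with siPrdx2, which overlap (log2 fold change 0.10, 95% interval -0.36 to 0.57). In SW480 cells ADM stood at 22.4 and 27.7 CPM with siCon and at 22.1 and 21.7 CPM with siPrdx2, all below the controls, with a log2 fold change of -0.19 (95% interval -0.55 to 0.16, adjusted p = 0.463). After the GC correction it was -0.36 and passed the threshold (adjusted p = 0.0364), as it did without the first SW480 control library (-0.34, adjusted p = 0.0367).

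PDGFA did not pass the threshold in either line. In SW480 cells it stood at 178 and 198 CPM with siCon and at 187 and 185 CPM with siPrdx2, a log2 fold change of -0.02 (95% interval -0.26 to 0.23) that became -0.17 after the GC correction (adjusted p = 0.096). In HT29 cells it stood at 12.2 and 12.4 CPM with siCon and at 11.5 and 11.5 CPM with siPrdx2, a log2 fold change of -0.10 (95% interval -0.38 to 0.19). The HT29 groups did not overlap, though the difference is within the error of the fit (adjusted p = 0.689). The effects in the lines differed by 0.078 (adjusted p = 0.813).

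Angiogenin could be measured only loosely. ANG was estimated at 2.44 and 2.91 CPM with siCon and 1.72 and 3.04 CPM with siPrdx2 in HT29 cells, and at 1.68 and 1.65 against 1.39 and 1.86 CPM in SW480 cells. The groups overlap in both lines, and the log2 fold changes were -0.18 (95% interval -0.85 to 0.49) and -0.03 (95% interval -0.83 to 0.77), the second of which was -0.15 after the GC correction. ANG overlaps RNASE4, another secreted ribonuclease, with which it shares first exons, and RSEM split their reads, as in the second SW480 siPrdx2 library with 19.5 counts for ANG and 43.5 for RNASE4. The counts of both genes together, a sum formed after the data were seen, were 120 and 111 against 114 and 112 in HT29 cells, and 76 and 69 against 50 and 63 in SW480 cells. The summed log2 fold change was -0.06 (adjusted p = 0.807) in HT29 and -0.49 (adjusted p = 0.203) in SW480 cells.

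The transcripts of the HIF α-subunits showed no change past the threshold in either line. HIF1A stood in HT29 cells at 125 and 113 CPM with siCon and at 134 and 124 CPM with siPrdx2, which overlap (log2 fold change 0.12, 95% interval -0.00 to 0.24, adjusted p = 0.175). It passed the threshold there without the first HT29 control library (0.20). In SW480 cells HIF1A stood at 201 and 182 CPM with siCon and at 187 and 183 CPM with siPrdx2 (log2 fold change -0.05, 95% interval -0.29 to 0.19), and the GC correction turned this to 0.21 (adjusted p = 0.0902). EPAS1 lay between 57.8 and 61.3 CPM in the HT29 libraries and between 61.4 and 69.5 CPM in the SW480 libraries, with log2 fold changes of 0.05 (95% interval -0.08 to 0.18) and -0.08 (95% interval -0.35 to 0.19), the second of which was -0.14 after the GC correction. With the GC correction and the replicate block HIF1A passed the threshold in HT29 (0.13, adjusted p = 0.0391) and in SW480 cells (0.21, adjusted p = 0.0309). RNA levels do not report the HIF proteins.

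Leaving out EDN1, 2 of the 8 members tested in HT29 cells passed the threshold, 1 in each direction, against 17.6% of all 12961 genes tested there. Over all genes 1006 rose and 1273 fell with edgeR, and 1252 rose and 548 fell with limma on log2(TPM + 1), which uses TPM without TMM scaling. In SW480 cells 0 of the 8 tested passed with edgeR, against 3.3% of 14112 genes, and 0 by DESeq2 or limma. An unadjusted edgeR p under 0.05 was found for 1 (ECE1), against 3447 of the 14112 genes. The SW480 split was 172 up and 294 down with edgeR, 126 up and 88 down with limma on log2(TPM + 1), and 1109 up and 1132 down after the GC correction. The test of the difference between lines called 0 of 8, against 1.12% of 14772 genes. Of all genes 0.508% were called with the higher and 0.616% with the lower effect in SW480 cells. DESeq2 called 1 member (ECE1) and limma 0. An unadjusted edgeR p under 0.05 was found for 2 (ECE1 and VEGFB), against 2835 of the 14772 genes. The SW480 count of genes moved when any single SW480 library was left out, control or knockdown, and what it depends on was not tested. The ECE1 log2 fold change in SW480 cells then ranged from 0.27 to 0.45.

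**Figure D2:**
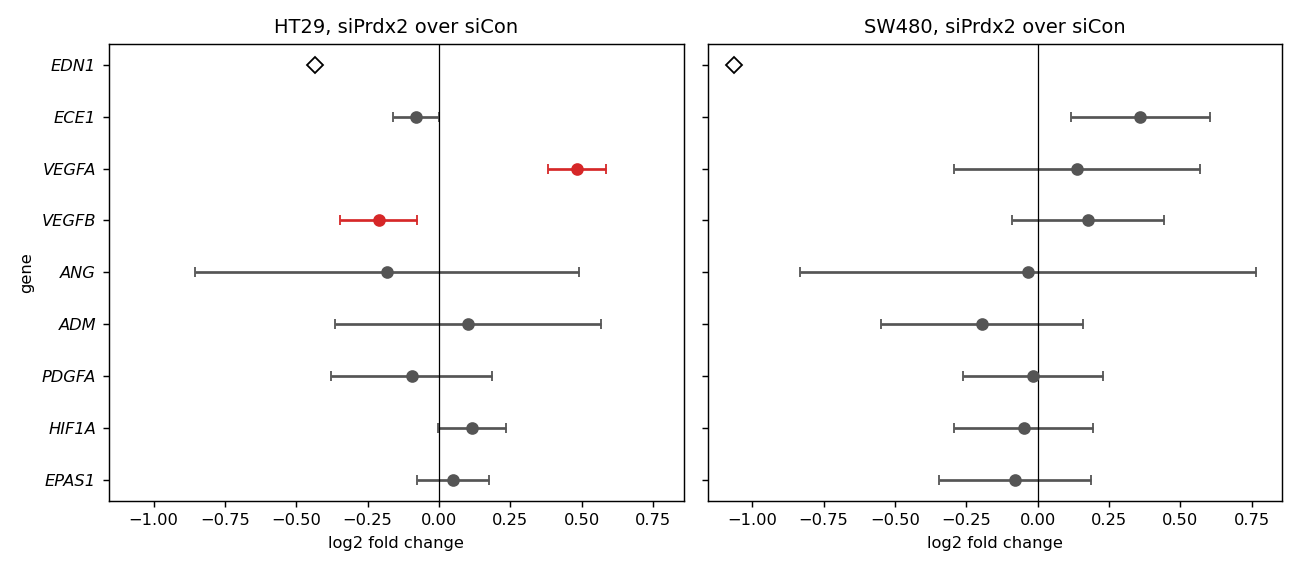
The x axis gives the log2 fold change of siPrdx2 over siCon and the y axis the gene, with HT29 cells on the left and SW480 cells on the right. Circles are edgeR estimates from 2 libraries a group with 95% intervals, red where the adjusted p is under 0.05, and the open diamonds show EDN1 without an interval because it was chosen by this value. VEGFA at 0.48 and VEGFB at -0.21 in HT29 cells are the red points, and ECE1 at 0.36 in SW480 cells has an interval above 0 but an adjusted p of 0.0985.

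The lines themselves differed far more than the siRNA groups. Under control siRNA 5 of the 8 members tested, with EDN1 left out, differed between SW480 and HT29 cells. This share is not above the background of 73.2% of all genes tested. PDGFA, ADM and HIF1A were higher in SW480 cells (39.0% of all genes were) and VEGFA and VEGFB lower (34.2%). PDGFA was 15.3-fold higher in SW480 cells (log2 fold change 3.93, SE 0.096, adjusted p = 2.75e-11) and ADM 4.98-fold higher (2.32, SE 0.19, adjusted p = 4.86e-07). HIF1A was 1.60-fold higher there (0.68, SE 0.084, adjusted p = 1.73e-05). VEGFA was 11.8-fold lower in SW480 cells (-3.56, SE 0.12, adjusted p = 3.69e-10) and VEGFB 1.35-fold lower (-0.43, SE 0.088, adjusted p = 0.000943). EDN1 was 4.99-fold lower (-2.32). EDN1 is given without a test here too, since its control libraries also entered the knockdown contrast that chose it.

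The 3 members that missed the threshold in this comparison were EPAS1 at 0.19 (95% interval -0.00 to 0.37, adjusted p = 0.0728), ECE1 at -0.11 (95% interval -0.28 to 0.06, adjusted p = 0.206) and ANG at -0.68 (95% interval -1.44 to 0.08, adjusted p = 0.0979). ANG and RNASE4 together were lower in SW480 cells by -0.66 on the log2 scale (adjusted p = 0.00383). EPAS1 passed without the first SW480 control library (0.26), and ECE1 without the second (-0.21) and after the GC correction (-0.18).

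**Figure D3:**
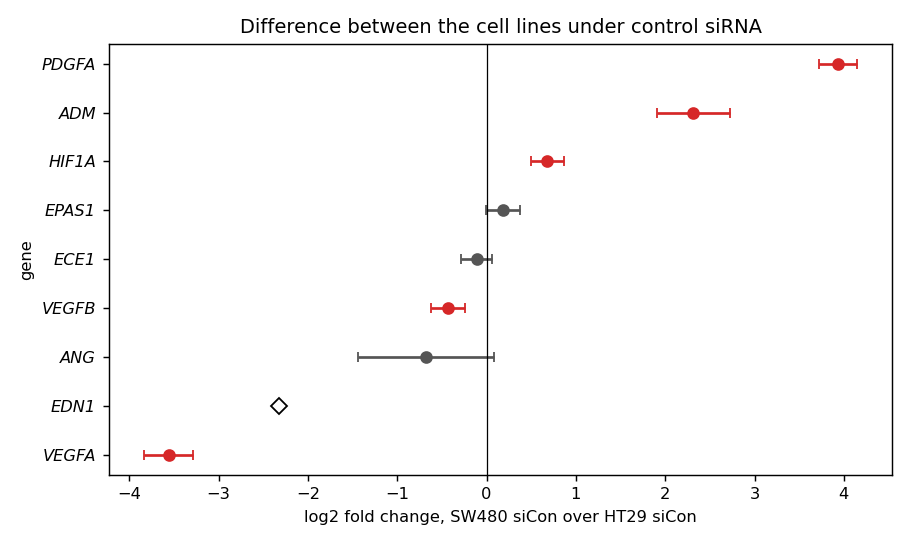
The x axis gives the log2 fold change of the SW480 over the HT29 control libraries, with 95% intervals from the edgeR fit, and the y axis the 9 genes ordered by it. Red marks an adjusted p under 0.05, the open diamond is EDN1 without an interval, and the points run from VEGFA at -3.56 to PDGFA at 3.93.

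On the TPM scale, which allows genes to be set beside each other, the lines led with different factors. In the HT29 controls VEGFA (101 ± 0.64 TPM, SD, n = 2) and ECE1 (101 ± 0.51) stood highest and did not differ beyond their spread. They were followed by VEGFB (76.0 ± 4.8), HIF1A (61.6 ± 4.8), EDN1 (42.7 ± 4.3), EPAS1 (23.4 ± 0.14), PDGFA (9.24 ± 0.099), ADM (7.44 ± 0.53) and ANG (5.12 ± 1.3), and each of these neighbours had separate values. In the SW480 controls PDGFA (157 ± 10 TPM) stood first. HIF1A (108 ± 8.5) and ECE1 (101 ± 8.4) came next, with overlapping values. VEGFB (61.7 ± 2.0), ADM (40.4 ± 5.8) and EPAS1 (29.0 ± 2.0) followed, and EDN1 (9.30 ± 0.92) and VEGFA (9.30 ± 0.76) could not be separated at the low end above ANG (3.86 ± 0.19).

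After knockdown VEGFA led the HT29 libraries alone (148 ± 12 TPM, n = 2), above ECE1 (99.8 ± 3.2), HIF1A (69.6 ± 4.0) and VEGFB (68.9 ± 1.2), the last 2 of which overlap. EDN1 stood at 33.0 ± 2.1, EPAS1 at 25.4 ± 0.78, PDGFA at 9.04 ± 0.028, ADM at 8.38 ± 2.1 and ANG at 4.81 ± 2.3 TPM, where PDGFA and ADM overlap. In SW480 cells PDGFA (165 ± 1.4 TPM) led after knockdown over ECE1 (139 ± 4.8), HIF1A (111 ± 1.6) and VEGFB (74.1 ± 0.50). ADM (37.6 ± 0.47), EPAS1 (29.2 ± 0.61) and VEGFA (10.9 ± 2.2) came before EDN1 (4.73 ± 0.76) and ANG (3.79 ± 0.61), which overlap.

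**Figure D4:**
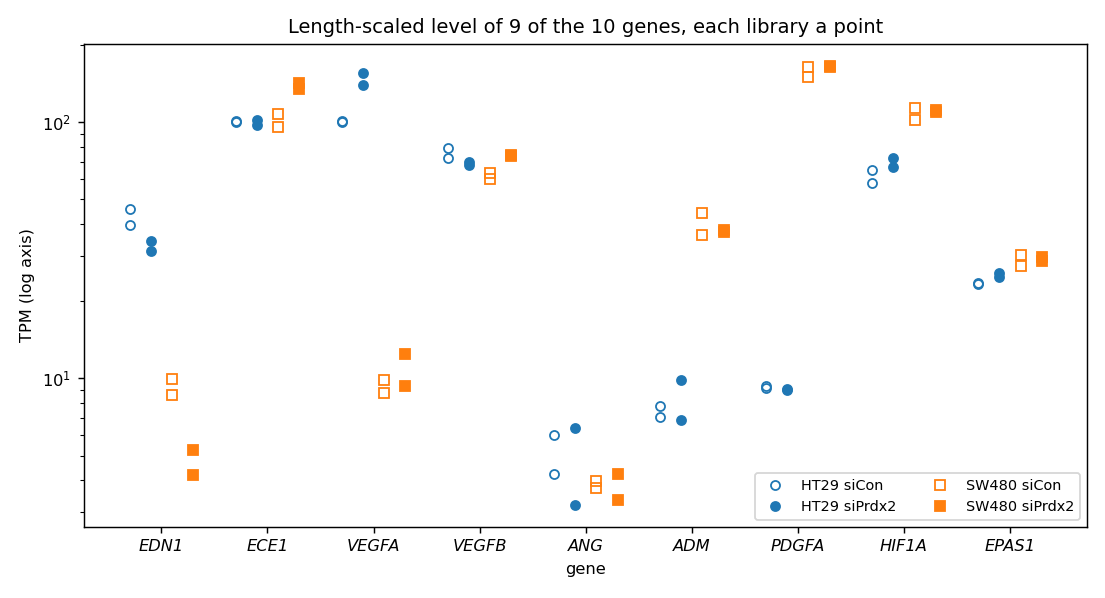
TPM on a logarithmic y axis for 9 genes on the x axis, with VEGFC left out because it had 1 count in all. Circles are HT29 and squares SW480 libraries, open for siCon and filled for siPrdx2, with 2 points a group. EDN1 and VEGFA stand lower in SW480 cells and ADM and PDGFA higher, while ECE1, VEGFB and EPAS1 lie close together.

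As a share of the 7 secreted factors' summed TPM, VEGFA made up 40.8% and 42.8% in the HT29 controls and 55.9% and 52.7% after knockdown, while EDN1 went from 18.6% and 16.8% to 12.3% and 11.9%. The sum itself was 246 and 237 TPM in the controls and 280 and 264 TPM after knockdown. In SW480 cells PDGFA held 55.6% to 55.9% in all 4 libraries and VEGFA 3.18% to 4.19%. The share of EDN1 there was 3.23% and 3.37% with siCon and 1.41% and 1.79% with siPrdx2. These falls in the EDN1 share restate the fall by which EDN1 was chosen. The ratio of VEGFA to VEGFB transcripts was 1.27 and 1.40 in the HT29 controls against 2.24 and 2.05 after knockdown, and 0.126 to 0.169 in SW480 cells. HIF1A exceeded EPAS1 in every library, by 2.47 to 2.80 times in HT29 and 3.34 to 4.13 times in SW480 cells. These shares have 2 libraries a group and no test was run on them.

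The mean transcript length that RSEM weights by isoform changed little. For PDGFA it was 2799 to 2801 nt in HT29 cells and 2750 to 2756 nt in SW480 cells, without overlap, so the 2 refGene isoforms were estimated in slightly different proportion. For VEGFA, which has 18 refGene transcripts, it lay between 3476 and 3494 nt in all 8 libraries, with siCon and siPrdx2 overlapping in SW480 cells. ANG ranged from 985 to 1222 nt with its uncertain read assignment.

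The other genes of the endothelin axis were few in these cells. Neither receptor gene, EDNRA or EDNRB, had any TPM above 0 in any group mean. In HT29 cells 3 of 9 axis genes could be tested and 0 passed with edgeR, DESeq2 or limma, against 17.6% of all genes with edgeR. Of the 3, 1 had an unadjusted edgeR p under 0.05, against 3909 of all 12961 genes tested. In SW480 cells 1 of the 5 tested passed, against 3.3% of all genes tested, and this was EDN3, a sister ligand. EDN3 fell there from 6.48 and 5.99 CPM to 2.59 and 1.66 CPM, without overlap (log2 fold change -1.55, SE 0.28, adjusted p = 0.0249). EDN3 had at most 0.108 CPM in HT29 cells. The SW480 call was lost in 1 of the 4 fits that left out a library and with limma on log2(TPM + 0.1) (adjusted p = 0.0595). DESeq2 gave no adjusted p for EDN3 and called 0 genes of the axis.

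The receptors of the other factors were also mostly missing. The main VEGF receptor KDR had a mean of at most 0.02 TPM in every group and the adrenomedullin receptor CALCRL at most 0.05 TPM, while FLT1 reached 4.57 TPM in the SW480 controls and 0 in HT29 cells. In HT29 cells NRP1, a VEGF co-receptor, rose from 39.1 and 39.6 CPM to 47.7 and 46.0 CPM (log2 fold change 0.25, SE 0.068, adjusted p = 0.0175). NRP1 was the 1 call among 2 genes tested of its family, against 17.6% of all genes tested. RAMP1, a partner of calcitonin-type receptors, rose from 3.71 and 3.55 CPM to 7.67 and 7.39 CPM (1.05, SE 0.20, adjusted p = 0.00119). PDGFB, the sister ligand of PDGFA, fell from 30.4 and 30.8 CPM to 24.7 and 21.6 CPM (-0.40, SE 0.092, adjusted p = 0.00567). NRP1 lost its call in 2 of the 4 fits that left out an HT29 library and PDGFB in 1. NRP1 also missed the threshold with DESeq2 (adjusted p = 0.177) and limma on log2(TPM + 1) (0.121), and PDGFB with DESeq2 (0.0669), which gave no adjusted p for RAMP1 and called 0 genes of these 3 axes.

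In SW480 cells 0 genes of the VEGF (4 tested), PDGF (4) or adrenomedullin (2) axes passed with edgeR, DESeq2 or limma. With edgeR 3.3% of all genes passed there. An unadjusted edgeR p under 0.05 was found for 2, 3 and 1 of them, against 3447 of all 14112 genes tested. The difference between lines was -0.54 for NRP1 (adjusted p = 0.0505), -1.21 for RAMP1 (adjusted p = 0.0692) and 0.45 for PDGFB (adjusted p = 0.177), none past the threshold. Of 4 genes tied to angiogenin, which are RNASE4, RNASE1, the ribonuclease inhibitor RNH1 and the receptor PLXNB2, edgeR called 0 in either line. Over all genes tested edgeR called 17.6% in HT29 and 3.3% in SW480 cells. At an unadjusted edgeR p under 0.05 there were 0 in HT29 and 2 in SW480 cells, against 3909 of 12961 and 3447 of 14112 genes. With limma 1 was called in SW480 cells.

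Of the genes that set HIF activity, 1 passed the threshold in HT29 cells and 0 in SW480 cells, against 17.6% and 3.3% of all genes tested. In HT29 cells it was the coactivator EP300, among 13 tested, which rose from 118 and 119 CPM to 146 and 141 CPM (log2 fold change 0.28, SE 0.046, adjusted p = 0.000402). EP300 missed the threshold with all 8 libraries fitted together (adjusted p = 0.327). DESeq2 called 1 gene of the list in HT29 cells and limma 2. In SW480 cells EP300 stood at 71.3 and 97.8 CPM with siCon and at 111 and 110 CPM with siPrdx2 (0.39, adjusted p = 0.158). There 0 of the 14 tested passed with edgeR, DESeq2 or limma. Of the 14, 9 had an unadjusted edgeR p under 0.05, against 3447 of all 14112 genes tested.

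Hypoxia-inducible genes other than the members fell more often than they rose in both lines. In HT29 cells 2 rose and 9 fell among 26 tested (7.76% and 9.82% of all genes rose and fell), with a median log2 fold change of -0.04, against -0.00 over all genes. The glycolytic enzymes GAPDH and ALDOA fell, GAPDH from 2856 and 2900 CPM to 2343 and 2357 CPM (log2 fold change -0.30, SE 0.014, adjusted p = 8.34e-11) and ALDOA from 850 and 859 CPM to 729 and 731 CPM (-0.23, SE 0.021). ERO1L, an oxidase of the endoplasmic reticulum, fell by 0.23 on the log2 scale. The 2 genes that rose were DDIT4, an inhibitor of mTORC1, from 267 and 262 CPM to 403 and 400 CPM (0.60, SE 0.031, adjusted p = 4.95e-10), and PDK1, a mitochondrial kinase (0.27, adjusted p = 0.0436). PDK1 lost its call in 2 of the 4 fits that left out a library and ERO1L in 1, and both missed the threshold with DESeq2 (adjusted p = 0.245 and 0.135) and limma. DESeq2 called 1 up and 6 down and limma 1 up and 3 down. In the limma fits the list's median was 0.02, against 0.06 over all genes.

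In SW480 cells 0 of 29 hypoxia-inducible genes rose and 6 fell (1.22% and 2.08% of all genes), and the median log2 fold change was -0.32, against 0.00 over all genes. SLC2A3, a glucose transporter, fell from 2092 and 2000 CPM to 991 and 966 CPM (log2 fold change -1.06, SE 0.074, adjusted p = 0.000618). PLOD2, a collagen lysyl hydroxylase, fell from 11.5 and 9.81 CPM to 4.37 and 5.18 CPM (-1.15, SE 0.20, adjusted p = 0.0249), and TMEM45A from 13.1 and 12.7 CPM to 5.67 and 7.72 CPM (-0.94, SE 0.20, adjusted p = 0.0427). The number that fell was 1 when either SW480 knockdown library was left out, 17 without the first control and 16 (with 2 up) without the second. It was 16 with 1 up after the GC correction, where the median was -0.25, and 1 with 0 up in the limma fits. PLOD2 and TMEM45A each lost the call in 2 of the 4 fits that left out a library and with limma, TMEM45A also with DESeq2 (adjusted p = 0.0531), and SLC2A3 kept it in each of these.

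**Figure D5:**
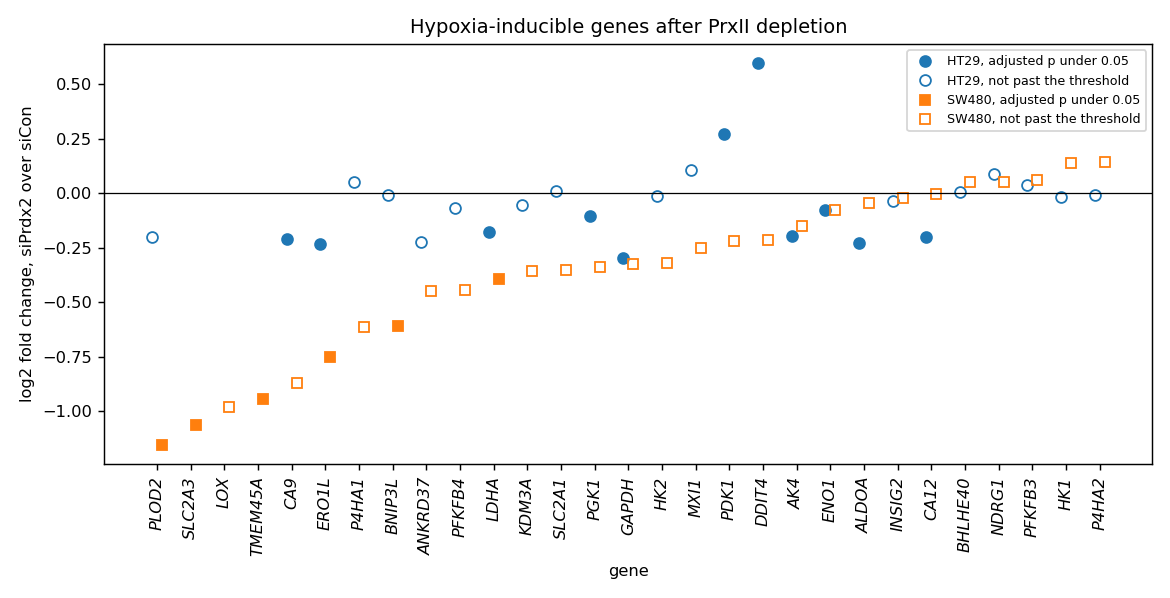
Hypoxia-inducible genes on the x axis, ordered by the SW480 value, with the log2 fold change of siPrdx2 over siCon on the y axis. Blue circles are HT29 and orange squares SW480 cells, filled where the edgeR adjusted p is under 0.05, and genes tested in SW480 cells alone have no circle. The SW480 values lie below 0 for 24 of 29 genes and the HT29 values for 18 of the 26 tested there, with DDIT4 the highest HT29 point at 0.60.

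Among other angiogenic factors HBEGF rose in HT29 cells and CTGF and CYR61 fell in SW480 cells, and the tested difference between lines passed the threshold for each. These calls of the difference were lost in most fits that left out a library. CTGF also missed the threshold with limma on log2(TPM + 0.1) (adjusted p = 0.0529). In HT29 cells 3 of 22 tested rose and 1 fell, against 7.76% and 9.82% of all genes, a share near the background. HBEGF, an EGF receptor ligand, went from 29.4 and 29.9 CPM to 59.0 and 59.0 CPM (log2 fold change 0.99, SE 0.069, adjusted p = 1.76e-08). The heparin-binding growth factor midkine (MDK) fell from 95.9 and 98.9 CPM to 71.0 and 71.1 CPM (-0.46, SE 0.052, adjusted p = 6.56e-06). TNFSF15 rose by 0.20 and the receptor EPHB4 by 0.10, and these lost their calls in 1 and 3 of the 4 fits that left out a library and both with DESeq2 (adjusted p = 0.122 and 0.137), which called 2 genes of the list. The median of the list was 0.03.

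In SW480 cells 1 of 26 rose and 3 fell, against 1.22% and 2.08% of all genes. CTGF and CYR61, matricellular proteins, fell from 27.2 and 28.3 CPM to 8.15 and 9.77 CPM (-1.63, SE 0.17, adjusted p = 0.00383) and from 339 and 314 CPM to 156 and 153 CPM (-1.08, SE 0.10, adjusted p = 0.00262). The chemokine CXCL5 fell from 9.39 and 7.85 CPM to 2.98 and 4.01 CPM (-1.30, SE 0.23, adjusted p = 0.0263) and had no count in HT29 cells. CXCL5 lost its call in 1 of the 4 fits that left out a library and with limma on log2(TPM + 1) (adjusted p = 0.0528). The list's count was 7 without the first SW480 control library and 13 without the second.

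Among inhibitors of angiogenesis, TIMP2 fell in both lines. It went from 132 and 133 CPM to 71.5 and 75.4 CPM in HT29 cells (log2 fold change -0.85, SE 0.050, adjusted p = 2.36e-09) and from 523 and 552 CPM to 293 and 298 CPM in SW480 cells (-0.86, SE 0.094, adjusted p = 0.00436). The effects differed by -0.01 (SE 0.097), and the SW480 call was lost without either knockdown library. In HT29 cells 5 of 11 inhibitors fell, including SERPINB5 (-0.62, SE 0.076) and SEMA3F (-0.31, SE 0.066), and 1 rose, THBS1 (0.19, adjusted p = 0.0487), whose call was lost in 3 of 4 fits that left out a library. Of all genes 9.82% fell and 7.76% rose there. DESeq2 and limma each called 3 of the 11, and SEMA3F missed the threshold with both (adjusted p = 0.0625 and 0.0538), as did THBS1 (0.291 and 0.0799). TIMP2 was the single call among 15 tested in SW480 cells, where 2.08% of all genes fell and 1.22% rose. SERPINB5 had -0.70 there (adjusted p = 0.0849). The median of the list was -0.15 in HT29 and -0.10 in SW480 cells, and the SW480 count was 0 without either knockdown library, 5 without the first control and 9 without the second.

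The 5 genes whose log2(CPM + 1) correlated most with EDN1 over all 8 libraries were RPL30, RPS23, SRPR, EEF1A1 and UBN2. Of 12314 genes with a mean of at least 1 CPM and tested in both lines, RPL30 and RPS23, which encode ribosomal proteins, had Pearson's r of 0.998 and 0.997, SRPR, a signal recognition particle receptor subunit, 0.997, EEF1A1, a translation elongation factor, 0.996, and UBN2 0.996. RPL30 stood at 719 and 709 CPM in the HT29 controls and 635 and 638 CPM after knockdown, and at 373 and 389 against 303 and 304 CPM in SW480 cells. VEGFA correlated with EDN1 at 0.933 (rank 1662) and VEGFB at 0.686, while PDGFA had -0.954 and ADM -0.935. The 8 points share 2 lines and 2 treatments, and the line difference sets most of each value, so these are descriptions.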

How the data were processed

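Messenger RNA was measured in 8 libraries, 2 for each line and siRNA, grouped by the labels. The authors prepared TruSeq libraries, sequenced paired ends on an Illumina HiSeq instrument, aligned them to hg19 with MapSplice and estimated refGene abundance with RSEM. The methods state this for HT29 cells, and the SW480 files have the same columns and genes. The authors deposited for each gene an expected count, a TPM value (transcripts per 1000000, from RSEM) and a transcript length weighted by isoform share. Submitters' processing notes name FastQC, DESeq2 and hg19. FPKM values were not used.

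Expected counts were rounded and tested with edgeR 4.0.16 in R 4.3.3 (glmQLFit and glmQLFTest, TMM, Benjamini-Hochberg adjustment over all genes tested, threshold 0.05) where 2 or more libraries reached 10 counts. Each knockdown was fitted on the 4 libraries of its line, and the difference between lines and the comparison of control libraries on all 8. CPM is the count per 1000000 scaled by TMM over all 8 libraries, and TPM is used to compare genes. The SE is the log2 fold change divided by the root of the F statistic. Limits and intervals cover counting error or the spread between these libraries only. The TPM alternatives used limma 3.58.1 with a mean trend on log2(TPM + 1) and log2(TPM + 0.1), and others DESeq2 1.42.0, RLE normalisation, no filter, a replicate block, all 8 libraries together, single libraries left out, and a GC correction by loess (span 0.5) on transcript GC content, which 89.5% of symbols and all 10 members had. The scripts were tested on simulated data. With a library left out, its group holds 1, which is assumed to vary like the others.

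Members, gene lists and tests were chosen with earlier results of these data known. Named genes were all members and PRDX2, up to 3 rises and 3 falls per list and knockdown among genes past the threshold with a mean of at least 1 CPM, and the 5 genes most correlated with EDN1. The sum of ANG and RNASE4 was added after the data were seen. Promoter sequence came from the GRCh37 genome, and motif counts covered 19867 promoters. Some genes of the lists are counted but not reported here by name.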

Additional observations from a re-analysis of the deposited data

Results flagged for a closer look

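The knockdown effect in SW480 cells minus that in HT29 cells was tested in 1 edgeR fit of all 8 libraries, and 7 of the genes named here had an adjusted p under 0.05. They are the targeted gene and 6 genes of the wider lists, and 0 of the 8 members tested passed. For PRDX2 the difference was -0.84 on the log2 scale (SE 0.12, adjusted p = 0.0128), so that the siRNA lowered its target further in SW480 cells. For DDIT4 it was -0.82 (adjusted p = 0.00722), from effects of 0.60 in HT29 and -0.22 in SW480 cells. HBEGF had -1.27 (adjusted p = 0.00543), from effects of 0.99 and -0.28. PLOD2 had -0.95 (adjusted p = 0.0493), from effects of -0.20 and -1.15. CTGF had -1.52 (adjusted p = 0.0124), from -0.10 and -1.63, and CYR61 had -1.23 (adjusted p = 0.00578), from 0.15 and -1.08.

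SLC2A3 had -4.21 (adjusted p = 0.02), but its HT29 libraries held 0.106, 0, 0.404 and 0.761 CPM and failed the count filter there, and a fold against such low levels has little meaning. After the GC correction all 7 stayed past the threshold in the same direction. Leaving out any HT29 or SW480 siPrdx2 library lost the call for each of the 7, in 6 of 8 fits, except that CYR61 lost it in 5. The calls held without either SW480 control library. With limma on log2(TPM + 0.1), CTGF, PLOD2 and SLC2A3 missed the threshold. PLOD2 also missed it with limma on log2(TPM + 1) (adjusted p = 0.0983) and with the replicate block (0.0566). SLC2A3 missed it with DESeq2 (adjusted p = 0.0602), which gave no adjusted p for HBEGF, CTGF or PLOD2. Groups hold 2 libraries, so no library could be checked for standing apart from the others of its group. Whether the deeper fall of PRDX2 has a part in the other differences was not tested.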

How the results depend on the processing

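Each group has 2 libraries, and most counts of calls followed the tool, the GC correction or a single library. The cause was not tested except where fewer libraries enter. In HT29 cells 2279 genes passed, 1029 with DESeq2, 185 with all 8 libraries fitted together and 1574 to 2030 with a library left out. The 2 members called there became 1 with DESeq2, with both limma fits, after the GC correction and with all 8 libraries, where VEGFB was lost, became 3 with the GC correction and the replicate block, where VEGFB passed (adjusted p = 0.0327) and HIF1A was added (0.13, adjusted p = 0.0391), and were 1 to 2 with a library left out. In SW480 cells 466 genes passed, 1727 with the replicate block, 214 and 177 with limma on log2(TPM + 1) and log2(TPM + 0.1), 2241 after the GC correction, 3140 with the GC correction and the replicate block, 2415 with all 8 libraries and 87 to 7364 with a library left out (3437 and 7364 without control libraries 1 and 2, 105 and 87 without knockdown libraries 1 and 2). The count of members called there was 1 after the GC correction (ADM lower), 3 with the GC correction and the replicate block (ECE1 and HIF1A higher, ADM lower), 1 with all 8 libraries (ECE1 higher) and 0 to 2 with a library left out. Between lines 166 effects differed, 267 without a filter, 302 with DESeq2, 103 and 43 with limma, 870 after the GC correction, 830 with that and the replicate block, and 6 to 5237 with a library left out (1371 and 5237 without SW480 control libraries 1 and 2, at most 15 without any other). Members called there were 1 with DESeq2 and 1 after the GC correction, each time ECE1, and 0 to 3 with a library left out. Between the control groups the log2 fold change lay between -3.66 and -3.47 for VEGFA and between 3.85 and 4.01 for PDGFA with a library left out. Directions turned only for members that the edgeR fit without these changes did not call. In SW480 cells PDGFA had 0.0737 and 0.0741 in the limma fits and EPAS1 0.0123 and 0.0127. HIF1A had 0.0394 and 0.0398 in the limma fits and 0.21 after the GC correction with or without the replicate block. With the GC correction and the block HIF1A passed the threshold in its turned direction (adjusted p = 0.0309). VEGFB had -0.0714 after the GC correction and -0.0735 with the block added. Between lines PDGFA had -0.0725 and -0.0728 and HIF1A 0.0866 and 0.0881 under those corrections, ANG summed with RNASE4 -0.42, and ECE1 between the control groups had 0.00813 and 0.00818 with limma. With a library left out the signs of ADM (-0.18 to 0.35) and ANG (-0.64 to 0.19) in HT29 cells, VEGFA (-0.0721 to 0.33), ANG (-0.25 to 0.16), PDGFA (-0.0904 to 0.0541) and HIF1A (-0.13 to 0.0219) in SW480 cells and ANG between lines (-0.22 to 0.60) turned. With the limma fits the median of all genes between control groups was 0.16 and 0.18. Whether replicate numbers pair the samples is not known. The deviations of libraries that share a number had a correlation of 0.046 in HT29 and 0.0813 in SW480 cells. These values cannot exclude pairing, since each line gives a single control and a single knockdown difference. The replicate block alone gave 2889 genes in HT29 cells and 196 between lines, and 2, 0 and 0 members called in HT29 cells, in SW480 cells and between lines.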
